A study of Homo sapiens with 6 samples.

Results

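Messenger RNA of 6 basal-like marker genes of pancreatic cancer was compared between parental and ARID1A-deficient L3.6pl cells. The genes are FAM83A, TNS4, CTSL2, DHRS9, LEMD1 and UCA1, a given list of basal-like markers other than keratins, S100 proteins and serpins. They were found by symbol, and all 6 had a row among the 23245 rows with a gene symbol. L3.6pl is an established human pancreatic cancer line. The 3 parental libraries carry the wild-type ARID1A genotype, and the 3 others are labelled ARID1A-deficient, with titles that mark them as a knockout. The cells of all 6 libraries were grown in minimum essential medium with fetal calf serum, and the labels name no drug. Neither the way ARID1A was disrupted nor the number of clones is given in the sources used here. Nothing says that the libraries of a group came from separate cultures, so p-values measure the spread between these libraries, which may be technical.

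Pancreatic carcinomas are commonly divided by their RNA into a classical group, with genes of glandular and gastrointestinal epithelium, and a basal-like group, with genes of stratified and squamous epithelium and a poorer outlook. The markers described here have unrelated functions. FAM83A is an adaptor-like protein linked to signalling from the epidermal growth factor receptor. TNS4 (tensin 4) is a focal adhesion protein that lacks the actin-binding part of other tensins and binds the receptor MET. CTSL2, now named CTSV, encodes cathepsin V, a lysosomal cysteine protease. DHRS9 is a dehydrogenase of retinol and steroids, LEMD1 is a LEM domain gene expressed mainly in testis and in tumours, and UCA1 is a long noncoding RNA first studied in bladder carcinoma.

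Only 3 of these 6 markers were measurable. TNS4 was high and CTSL2 near the middle of the rows above 0 in both groups, and neither passed the test between groups. FAM83A fell 4.68-fold in ARID1A-deficient cells. DHRS9, LEMD1 and UCA1 stayed below 0.3 FPKM in every library.

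Promoter windows of RefSeq (build GRCh38.p14, 250 bases before to 50 after a transcript start) were matched for 3 of the markers. No window was available for TNS4 or UCA1, and that of FAM83A is not reported here. CTSL2 was measurable in every library while DHRS9 and LEMD1 were near 0. With 3 windows, and those of FAM83A and TNS4 absent, no relation between sequence and level can be read from them. Capitals mark each CG dinucleotide. The CTSL2 window is chr9:97039093-97039392, minus strand, that of DHRS9, the first of 4 listed starts, is chr2:169066827-169067126, plus strand, and that of LEMD1 is chr1:205422007-205422306, minus strand. The last 50 bases of the CTSL2 and DHRS9 windows occur in an annotated transcript of the gene (GENCODE release 29), and those of the LEMD1 window do not.

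CTSL2: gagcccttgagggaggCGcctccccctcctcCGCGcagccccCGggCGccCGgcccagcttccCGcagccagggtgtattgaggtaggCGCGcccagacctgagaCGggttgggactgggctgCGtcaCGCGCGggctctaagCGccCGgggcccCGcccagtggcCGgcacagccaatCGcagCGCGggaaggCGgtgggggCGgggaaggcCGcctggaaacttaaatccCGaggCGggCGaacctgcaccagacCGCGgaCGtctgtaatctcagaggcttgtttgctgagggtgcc

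DHRS9: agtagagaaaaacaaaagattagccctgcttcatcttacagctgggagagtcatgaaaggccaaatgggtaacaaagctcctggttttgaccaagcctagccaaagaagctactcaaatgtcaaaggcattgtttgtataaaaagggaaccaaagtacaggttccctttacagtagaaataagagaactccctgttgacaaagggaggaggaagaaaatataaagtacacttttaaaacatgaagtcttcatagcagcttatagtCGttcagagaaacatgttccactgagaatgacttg

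LEMD1: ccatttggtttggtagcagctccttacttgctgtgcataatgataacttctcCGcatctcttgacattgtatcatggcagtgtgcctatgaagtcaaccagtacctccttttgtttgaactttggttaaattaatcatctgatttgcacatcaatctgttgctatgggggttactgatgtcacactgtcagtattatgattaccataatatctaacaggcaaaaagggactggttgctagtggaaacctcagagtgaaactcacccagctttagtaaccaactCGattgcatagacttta

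The CTSL2 window held 30 CG dinucleotides and 71.3% G and C, more than 82.6% of the 34794 promoter windows. The DHRS9 window held 1 CG dinucleotide and 39.3% G and C, and the LEMD1 window 2 and 40.3%. The median window had 14 CG dinucleotides and 58.7% G and C. Promoters rich in CG dinucleotides are typical of broadly expressed genes, and promoters poor in them of genes restricted to few tissues. These windows were also searched on both strands for 4 short motifs. The first, TGANTCA, is bound by AP-1. TEAD factors bind the second, which was written as GGAATG. The GATA factors were represented by the letters AGATAA. The last was the TATA box, searched as TATAAA. None of the 4 motifs was found in the windows of CTSL2 or LEMD1. The DHRS9 window shown held 2 TATA box matches, with first bases at positions -114 and -32 from the start. Of the DHRS9 starts not shown, the second had an AP-1 match at -48 and a TATA box match at -149. The third had a TATA box match at -137, and the last had GATA matches at -237 and -51. Of all windows, 7.73% held the AP-1 letters, 14.0% those of TEAD, 10.4% those of GATA and 11.6% those of the TATA box. A match is a description of the letters and shows no binding.

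Levels are in FPKM, which divides a gene's fragments by its transcript length and by the size of the library. Library values are listed in the order of replicates 1, 2 and 3, and means are given ± SD over the n = 3 libraries of a group. Measurable means a mean of 0.5 FPKM or more, the requirement for the limma test, and a gene rose, fell or passed where its adjusted p was under 0.05. Total fragments are not given, so the depth is unknown. The 6 libraries summed to 576084 to 792187 FPKM, with 15635 to 16391 rows above 0. ARID1A itself was lower in each ARID1A-deficient library (3.28 to 3.61 FPKM) than in each parental library (6.76 to 11.8 FPKM), 2.68-fold in mean (limma adjusted p = 0.0061). Parental library 2 stands apart in the sense that leaving it out raised the number of changed genes from 2043 to 4079 of 12826. Among 6 epithelial markers read to check the cell type (EPCAM, CDH1, KRT8, KRT18, KRT19 and KRT7), all were measurable, from 3.37 FPKM upwards. Limma called 0 of them (before adjustment, 4 were lower and 0 higher at p under 0.05). Without parental library 2 it called 3 lower, CDH1, KRT8 and KRT19, and after quantile normalization 5 lower, all but EPCAM. Their summed level was 6286.1 to 9831.2 FPKM in parental and 4527.1 to 5722.6 FPKM in ARID1A-deficient libraries, so it moved with the groups, and its part in the results was not tested.

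Per transcript length, the levels of the markers differed widely in both groups. TNS4 was the highest and exceeded the mean of 94.0% of rows above 0 in parental libraries and of 93.4% in ARID1A-deficient libraries. CTSL2 followed, 20.3-fold below TNS4 in the parental mean and 17.2-fold below it in the ARID1A-deficient mean. It exceeded 53.2% of rows above 0 in the parental mean and 55.1% in the ARID1A-deficient mean. FAM83A came next, 1.24-fold below CTSL2 in parental cells and 6.38-fold below it in ARID1A-deficient cells. The library values of these neighbours in the order did not overlap within either group. The levels of LEMD1, DHRS9 and UCA1 overlapped one another in both groups, so their order is not resolved. FAM83A exceeded 50% of rows in the parental mean and 32.8% in the ARID1A-deficient mean, the largest shift in rank among the 3 measurable markers.

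**Figure D1:**
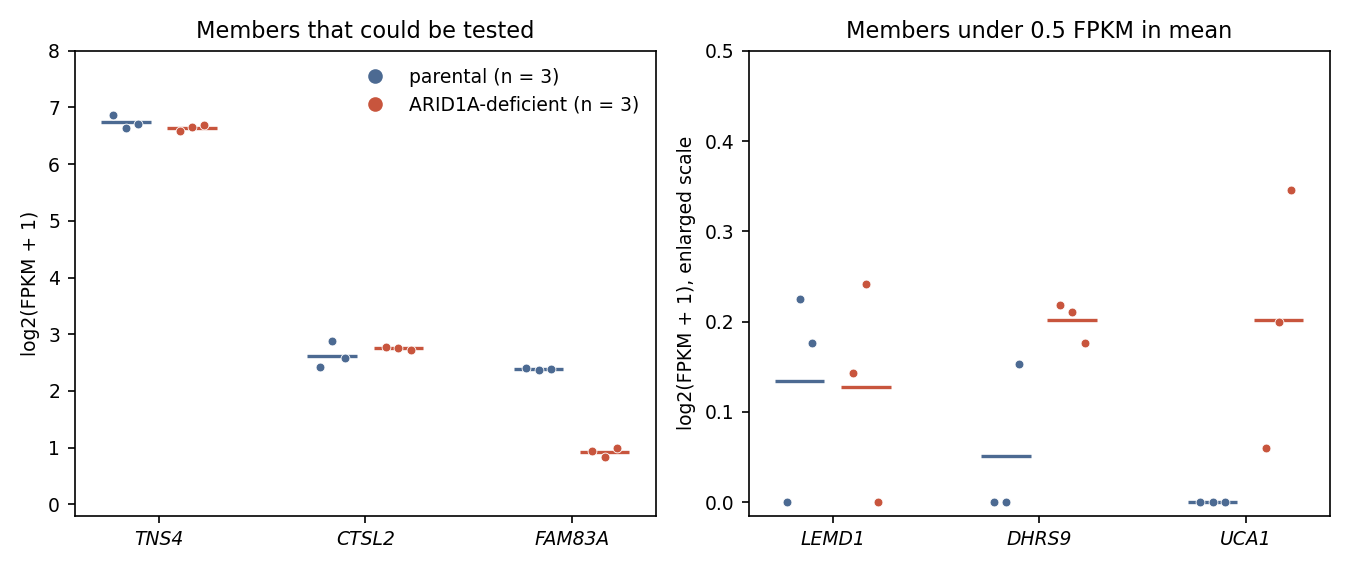
Values of the 6 markers as log2(FPKM + 1), with the measurable markers (members in the titles) on the left and those under 0.5 FPKM in mean on the right, on an enlarged scale. Each point is 1 library and each bar the mean of 3. FAM83A lies lower in all ARID1A-deficient libraries, TNS4 and CTSL2 overlap between groups, and every parental UCA1 point lies at 0.

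FAM83A had parental values of 4.31, 4.14 and 4.20 FPKM and ARID1A-deficient values of 0.924, 0.787 and 0.994 FPKM. The groups were far apart, and the parental values differed from each other by little. The means were 4.22 ± 0.0858 and 0.901 ± 0.105 FPKM. On the log2(FPKM + 1) scale, which understates changes of low genes, the change was -1.46 (SE 0.09, 95% interval -1.67 to -1.24, limma adjusted p = 0.000113). The adjusted p over the 6 fits that each left out 1 library was 2.84e-05 to 0.00177. Of the 3 markers tested, 1 was thus lower and 0 higher (0 higher also at an unadjusted p under 0.05 in limma). Over all 12826 genes, limma called 15.9%, with 8.11% lower and 7.82% higher in ARID1A-deficient cells, and 1.26% called and at least 2-fold lower on that scale. With 3 markers tested, their share cannot be read against these percentages.

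The difference in response between the markers was itself measured as the gap of their log2(FPKM + 1) values within each library. The gap of FAM83A to TNS4 was -4.46, -4.28 and -4.32 in the parental libraries and -5.63, -5.82 and -5.70 in the ARID1A-deficient ones. The group means of this gap differed by -1.36, with no overlap of the groups. Against CTSL2 the gap of FAM83A differed by -1.59, also with no overlap. An exact two-sided permutation test of 3 against 3 libraries gave p = 0.1 for each of these 2 gaps, the smallest p this design allows. The gap between TNS4 and CTSL2 overlapped between the groups (exact permutation p = 0.4).

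The FAM83 family shares a domain that binds casein kinase 1, and its members differ in tissue and partner. Of 8 members, 6 were measurable, and FAM83A was the only one past the threshold with all 6 libraries. Without parental library 2, 3 members were lower. FAM83D, a protein of the mitotic spindle, measured 70.0 ± 9.41 and 64.4 ± 5.86 FPKM, and FAM83H, an organiser of keratin filaments that is needed for tooth enamel, measured 57.3 ± 3.91 and 54.1 ± 1.84 FPKM. FAM83A was thus not the most abundant member of its family in either group. FAM83G had means of 8.43 ± 3.48 and 4.56 ± 1.2 FPKM and overlapped between groups (limma adjusted p = 0.173). Its parental values were 11.7, 4.74 and 8.87 FPKM, so parental library 2 was low and close to the ARID1A-deficient values of 3.39 to 5.8 FPKM. The median log2 fold change of the 6 members was -0.24, beside -0.015 over all genes tested.

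Receptors, kinases and other proteins that FAM83A or TNS4 are known to act with were all measurable. Limma called 0 of 11 (1 was higher and 0 lower at p under 0.05 before adjustment), and their median log2 fold change was -0.09. Without parental library 2, 1 was higher (CSNK1E) and 3 were lower (EGFR, DLC1 and CTNNB1), of which DLC1 and CTNNB1 are neither receptors nor kinases. MET, the hepatocyte growth factor receptor that TNS4 binds, measured 11.8 ± 2.27 and 11.0 ± 1.07 FPKM. EGFR, the epidermal growth factor receptor, measured 7.93 ± 3.70 and 4.78 ± 1.02 FPKM, with overlap of the groups and a log2 fold change of -0.55 (95% interval -1.29 to 0.18). CSNK1E, a casein kinase 1 gene, was higher in every ARID1A-deficient library (50.2 ± 2.82 against 41.2 ± 1.71 FPKM) but did not pass (limma adjusted p = 0.0774).

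TNS4 had parental values of 115.8, 99 and 103.3 FPKM and ARID1A-deficient values of 94.6, 100 and 102.6 FPKM. Parental library 1 was the highest and ARID1A-deficient library 1 the lowest, and the other 4 libraries lay within 5 FPKM of each other. The log2 fold change was -0.09 (SE 0.11, limma adjusted p = 0.622), and its 95% interval of -0.35 to 0.16 leaves room for a moderate change in either direction. Of the other tensins, which link integrins to actin, TNS3 was higher in every ARID1A-deficient library (17.6 ± 1.96 against 11.0 ± 3.17 FPKM). It did not pass (limma adjusted p = 0.0745), but did so without parental library 1 or without parental library 2, its lowest value at 7.61 FPKM. TENC1, also called tensin 2, measured 4.31 ± 0.532 and 5.15 ± 0.615 FPKM. Among the 3 tensins tested, limma called 0, with 1 higher and 0 lower at p under 0.05 before adjustment. TNS1, named after its values were seen, was lower in every ARID1A-deficient library, at 0.723 ± 0.149 and 0.224 ± 0.0399 FPKM, and was under the requirement for the test (in the limma fit without that filter, adjusted p = 0.0099). TNS4 was the most abundant tensin in every library.

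CTSL2 had parental values of 4.33, 6.36 and 4.95 FPKM and ARID1A-deficient values of 5.88, 5.74 and 5.63 FPKM. Parental library 2 held the highest value of all and the other parental libraries the lowest, so the ARID1A-deficient values lie inside the parental range. The means were 5.22 ± 1.04 and 5.75 ± 0.125 FPKM, with a log2 fold change of 0.13 (SE 0.13, 95% interval -0.18 to 0.44, limma adjusted p = 0.569). Without parental library 2 the change was 0.26 and the adjusted p = 0.0846. CTSL2 is closely related to cathepsin L, but their annotated transcripts (GENCODE release 29) shared 0 words of 50 bases.

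Of 11 cathepsins tested, 1 rose, 1 fell and 9 did not pass, while CTSL2 and its nearest relative overlapped between groups. CTSL1, now named CTSL, measured 25.1 ± 3.09 and 29.2 ± 1.23 FPKM (limma adjusted p = 0.226). CTSF, the gene of cathepsin F, rose 7.0-fold, with means of 0.658 ± 0.245 and 4.61 ± 0.356 FPKM (limma adjusted p = 0.00027). CTSB, the gene of cathepsin B, fell 1.83-fold, with means of 96.6 ± 4.94 and 52.8 ± 2.21 FPKM (limma adjusted p = 0.00147). The highest cathepsin was CTSD, an aspartic protease gene, at 345.5 ± 67.8 and 331.7 ± 49.6 FPKM. Without parental library 2, 3 cathepsins were higher, CTSF, CTSH (adjusted p = 0.0372) and CTSL1 (adjusted p = 0.0284). CTSS, named after its values were seen, was higher in every ARID1A-deficient library, at 0.0413 ± 0.0165 and 0.395 ± 0.108 FPKM. It was under the requirement for the test (in the limma fit without that filter, adjusted p = 0.00705), and the other cathepsins under it overlapped between groups. Cystatins, which inhibit cysteine cathepsins, had 3 measurable genes of 9, CSTA, CSTB and CST3. None passed limma (0 at an unadjusted p under 0.05), with 2 higher without parental library 2. CST6, a cystatin of the basal-like signature that was also named after its values were seen, was listed at 0 in 5 libraries and at 0.205 FPKM in parental library 2.

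DHRS9 had parental values of 0, 0 and 0.112 FPKM and ARID1A-deficient values of 0.163, 0.157 and 0.130 FPKM. All ARID1A-deficient values lay above all parental values, though only just above the 0.112 FPKM of parental library 3. The mean was under the 0.5 FPKM needed for the test. With no filter on low values, limma gave an adjusted p = 0.0956, and an exact two-sided permutation test gave p = 0.1, the smallest possible. Among 5006 rows above 0 with a mean under 0.5 FPKM, 14.9% had every ARID1A-deficient value above every parental value. An exact 0 in these files can be a failed estimate, so no fold is given.

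UCA1 likewise showed no overlap. All 3 parental libraries listed it at 0, and the ARID1A-deficient ones at 0.0424, 0.148 and 0.271 FPKM. The ARID1A-deficient values differed from each other by more than the lowest of them differed from 0. Without a filter the limma adjusted p = 0.118, and the exact permutation p = 0.1 was again the smallest possible. LEMD1 had parental values of 0, 0.169 and 0.130 FPKM and ARID1A-deficient values of 0.104, 0.182 and 0 FPKM. Each group had 1 library at 0 and the ranges overlapped (adjusted p = 0.976 without a filter). Of the 50-base words in annotated LEMD1 transcripts, 12.8% also occur in transcripts of BLACAT1, a long noncoding RNA gene that overlaps it on the same strand, so fragments may be shared. For the other 5 markers this share was below 1%. MIR135B, a microRNA gene inside the annotated LEMD1 locus, was listed at 0 in all 6 libraries. These are messenger RNA libraries, so the mature microRNA was not measured. FAM83A, UCA1 and LEMD1 each overlap a gene on the opposite strand in GENCODE, and the library kit does not keep strand. On the same strand, FAM83A overlaps the transcribed pseudogene AC068228.2 and UCA1 overlaps RF02202, and no row was found for either.

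DHRS9 was compared with other dehydrogenases of the DHRS and RDH names, many of which act on retinol, retinaldehyde or steroids. Of 21 listed genes, DHRS9 included, 14 were measurable, of which 2 rose, 3 fell and 9 did not pass. DHRS2 rose 4.07-fold, with means of 1.97 ± 0.328 and 8.03 ± 0.978 FPKM (limma adjusted p = 0.000391). RDH14 fell 1.62-fold, with means of 25.2 ± 1.14 and 15.5 ± 1.65 FPKM (limma adjusted p = 0.00482). RDH10, which oxidises retinol to retinaldehyde, fell 1.46-fold (limma adjusted p = 0.012), a call lost when parental library 3 or ARID1A-deficient 2 or 3 was left out (adjusted p up to 0.0695). DHRS12 rose 1.88-fold and DHRS13 fell 1.52-fold with limma adjusted p of 0.0401 and 0.0429. The DHRS12 call was lost when any library but parental 2 was left out, and the DHRS13 call without parental library 3 or any 1 ARID1A-deficient library (highest adjusted p = 0.138 and 0.162). Counts of higher genes ran from 1 to 3 and of lower genes from 1 to 3 with 1 library left out. The count of 3 higher was reached without parental library 2, where DHRS7B passed as well (adjusted p = 0.0352). DHRS3, which reduces retinaldehyde, was the highest at 138.6 ± 39.9 and 91.8 ± 12.1 FPKM and did not pass (limma adjusted p = 0.134). It was lower in every ARID1A-deficient library and passed after quantile normalization (adjusted p = 0.00989). The LEM domain genes, which share that domain with LEMD1, had 5 measurable members of 7. Limma called 0 of them (0 at an unadjusted p under 0.05), with 1 higher and 1 lower without parental library 2. EMD, the emerin gene, measured 91.6 ± 16.8 and 111.8 ± 14.3 FPKM.

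**Figure D2:**
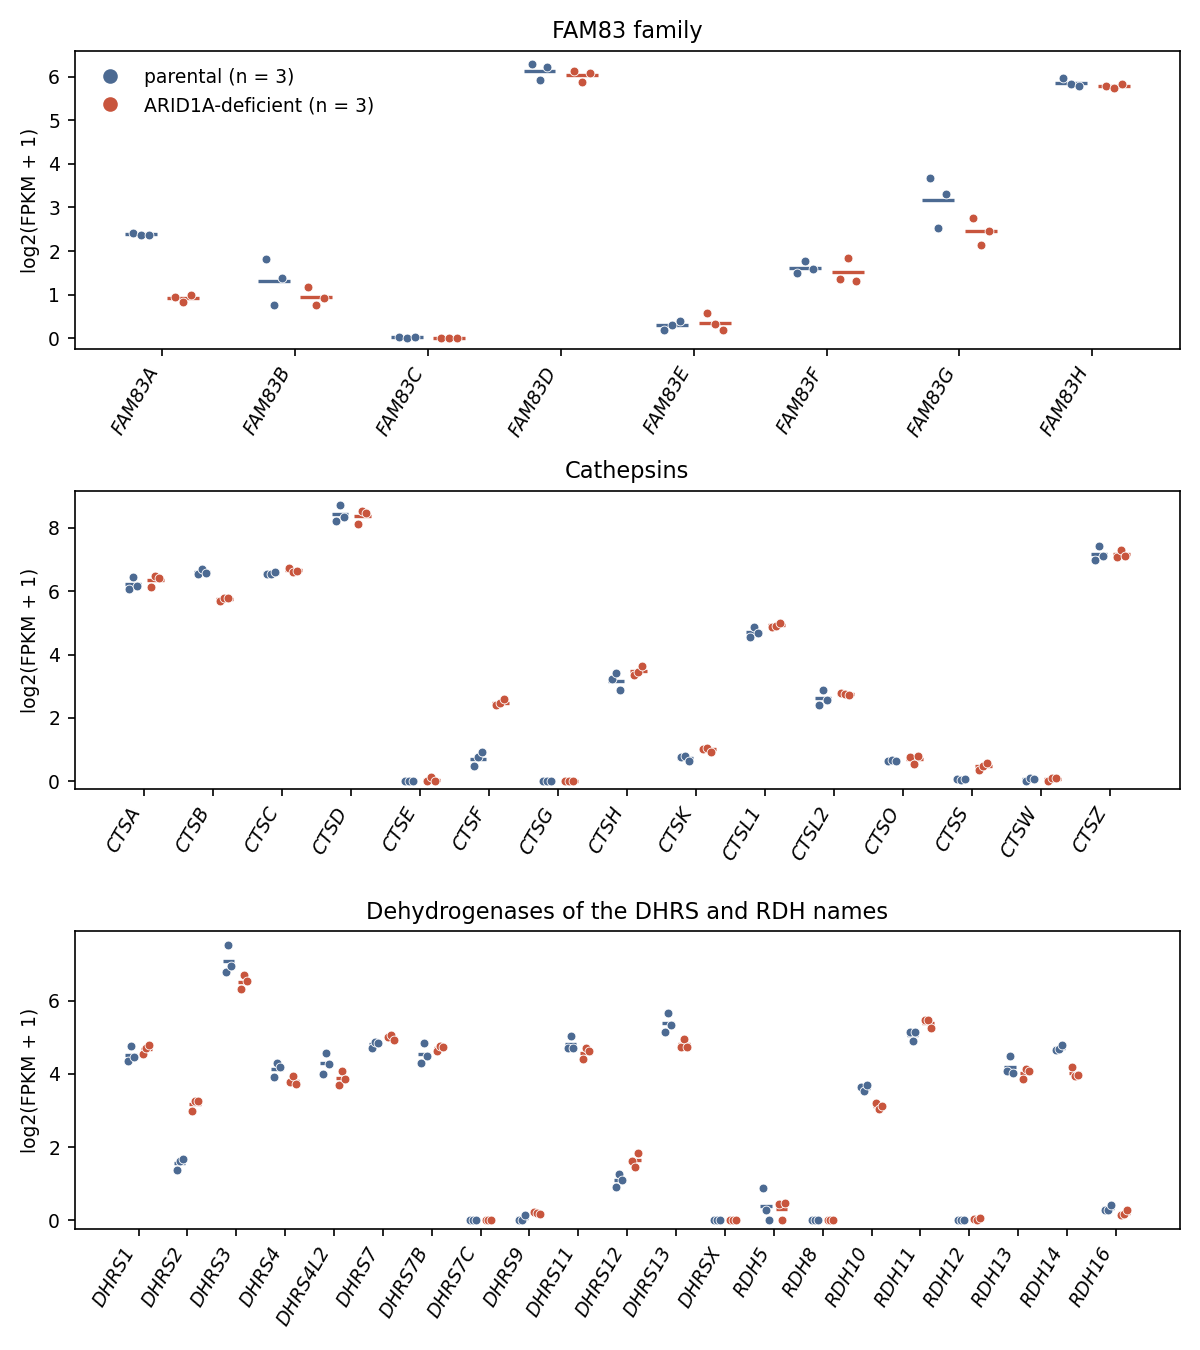
Levels of the FAM83 family, the cathepsins and the DHRS and RDH dehydrogenases as log2(FPKM + 1), with 1 point per library and bars at the means of 3. FAM83A is the FAM83 gene whose groups lie apart, CTSL2 overlaps between groups beside the shifts of CTSB and CTSF, and DHRS9 sits near 0, as do 6 other dehydrogenases, below the 14 measurable ones.

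Many other genes of the basal-like signature, written as 25 genes including the 6 markers, were also near 0. In every library, 13 of the 25 stayed below 1 FPKM, 3 of them among the markers described here. Of the 19 others, 9 were measurable, and 4 rose, 2 fell and 3 did not pass. KRT6A, a keratin of stressed and squamous epithelium, had parental values of 1.25, 2.23 and 2.0 FPKM and ARID1A-deficient values of 16.7, 19.5 and 19.1 FPKM, a 10.1-fold rise in mean (limma adjusted p = 6.44e-05). FGFBP1, a secreted carrier of fibroblast growth factors, rose 6.18-fold, with means of 155.3 ± 22.9 and 959.8 ± 42.5 FPKM. Both moved opposite to FAM83A.

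SLC2A1, the glucose transporter GLUT1, fell as FAM83A did, 2.30-fold from 485.6 ± 23.0 to 211.2 ± 8.39 FPKM (limma adjusted p = 0.00128). KRT15 rose 1.63-fold (limma adjusted p = 0.0325), and ANXA8L2, named after its values were seen, fell 2.08-fold (limma adjusted p = 0.0392). Both calls were lost when any 1 library other than parental 2 was left out (highest adjusted p = 0.133 and 0.113), which leaves 3 higher and 1 lower. ANXA8L2 and KRT6A have near-identical copies with which fragments may be shared. KRT17 and S100A2 were among the high genes and did not pass, with lowest library values of 1633.2 and 1316.4 FPKM. S100A2, 1.58-fold higher in mean with overlap of the groups (limma adjusted p = 0.174), passed without parental library 2 (adjusted p = 0.00743) and after quantile normalization (adjusted p = 0.00635). KRT7 was lower in every ARID1A-deficient library, at 2892.2 ± 730.2 and 2141.8 ± 236.8 FPKM. It did not pass (limma adjusted p = 0.327) but did so, as lower, after quantile normalization (adjusted p = 0.00304). Over all 12 measurable genes of the signature, 4 rose and 3 fell, with a median log2 fold change of 0.13, beside -0.09 for the 3 markers described here and -0.015 over all genes tested. In the limma fit without the filter on low values, the other basal-like genes had 6 higher and 2 lower. Those added were SCEL (means 0.1 and 0.691 FPKM, adjusted p = 0.00305) and SPRR1B (0 and 0.285 FPKM, adjusted p = 0.00855), both higher in every ARID1A-deficient library.

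Genes of the classical signature, the counterpart of the markers, were likewise divided. Of 25 listed, 23 had a row, 8 were measurable, and 3 rose, 3 fell and 2 did not pass. CEACAM6, a cell adhesion glycoprotein gene, rose 6.67-fold, with means of 2.37 ± 0.445 and 15.8 ± 0.958 FPKM, TSPAN8, a tetraspanin gene, rose 3.29-fold and ST6GALNAC1, a sialyltransferase gene, rose 3.04-fold. TFF2, a trefoil factor of gastric mucus, fell 8.77-fold, with means of 50.6 ± 13.5 and 5.78 ± 1.10 FPKM and TFF1 fell 4.77-fold. SPINK4, a secreted peptide gene of goblet cells, fell 2.61-fold (limma adjusted p = 0.0248), a call lost when parental library 3 or ARID1A-deficient 1 or 3 was left out (adjusted p up to 0.113). The median log2 fold change of the 8 was 0.28. The 5 other classical calls had limma adjusted p of 5.75e-05 to 0.00157. In the limma fit without the filter on low values, 5 classical genes were higher and 3 lower.

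**Figure D3:**
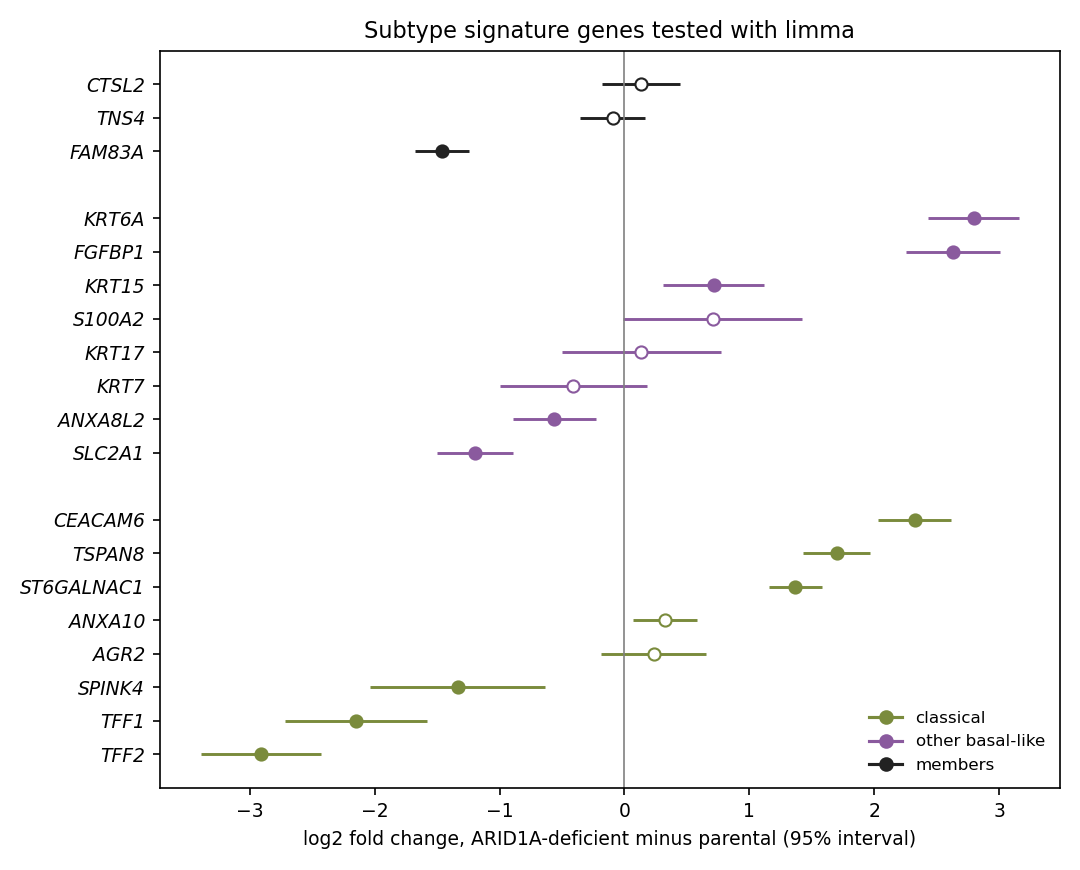
Log2 fold changes on the log2(FPKM + 1) scale with 95% intervals for the measurable genes of the basal-like and classical signatures, with 8 of the 9 other basal-like genes drawn. Filled points passed limma at an adjusted p under 0.05. FAM83A lies at -1.46, TNS4 and CTSL2 near 0, and the other basal-like and the classical genes lie on both sides of 0.

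Leukocyte and stromal markers were checked because DHRS9 and cathepsins are also known from macrophages. Of 12 macrophage and leukocyte markers, 11 stayed below 1 FPKM in every library, and CD163, MRC1, TYROBP and AIF1 were listed at 0 in all 6. CD68, a lysosomal gene that epithelial lines can express, was the exception at 9.17 ± 0.672 and 6.44 ± 0.797 FPKM. Its fall had a limma adjusted p = 0.0346, lost when parental 1 or 3 or ARID1A-deficient 1 or 3 was left out (adjusted p up to 0.136). The summed level of the 12 was 8.51 to 9.87 FPKM in parental and 5.98 to 7.70 FPKM in ARID1A-deficient libraries. Of 14 fibroblast and endothelial markers, 5 were measurable, and COL1A1, COL1A2 and COL3A1 rose while PECAM1 fell. PECAM1 kept its call in none of the fits that left out a library other than parental 2 (highest adjusted p = 0.0982). CDH5, at 7.08 ± 0.945 and 7.62 ± 0.177 FPKM, did not pass (limma adjusted p = 0.594). Among the markers under the requirement for the test, SPARC (means 0.0129 and 0.197 FPKM) and PDGFRA (0.0365 and 0.238 FPKM) were higher in every ARID1A-deficient library. In the limma fit without that filter their adjusted p were 0.032 and 0.00864. The other low markers overlapped between groups, with DCN and LUM at 0 in all 6 libraries. The sum of the 14 was 30.2 to 34.2 FPKM in parental and 184.6 to 199.4 FPKM in ARID1A-deficient libraries. The part of these sums in the FAM83A result was not tested.

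Genes next to each marker along the chromosome (RefSeq order, build GRCh38.p14) were compared, taking the 3 nearest tested genes on either side. The 6 around FAM83A all lay below 0, with log2 fold changes of -0.54 to -0.16 and a median of -0.27, against -1.46 for FAM83A. Of these, 3 had a limma p under 0.05 before adjustment. After adjustment 1 fell, ZHX2, a transcriptional repressor gene (limma adjusted p = 0.019, highest 0.0975 with 1 library left out). Around LEMD1, 3 of 6 fell, the most for SLC45A3 at -0.88 (SE 0.10, limma adjusted p = 0.00172), and the median was -0.35. The falls of NUAK2 and CDK18 had limma adjusted p of 0.0498 and 0.0357, and those calls were not kept in every fit with 1 library left out (highest adjusted p = 0.158 and 0.128). TNS4 had 1 of 6 neighbours lower, GJD3, a connexin gene, with limma adjusted p = 0.0439 and at most 0.165 with 1 library left out. CTSL2 also had 1, TDRD7, a Tudor domain gene that fell by 0.88 on the log2 scale (SE 0.10, limma adjusted p = 0.00153). DHRS9 had BBS5, a gene of the primary cilium, higher (limma adjusted p = 0.0264, at most 0.0999 with 1 library left out), and around UCA1 limma called 0 of 6 (1 at p under 0.05 before adjustment), with values of -0.19 to 0.24.

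**Figure D4:**
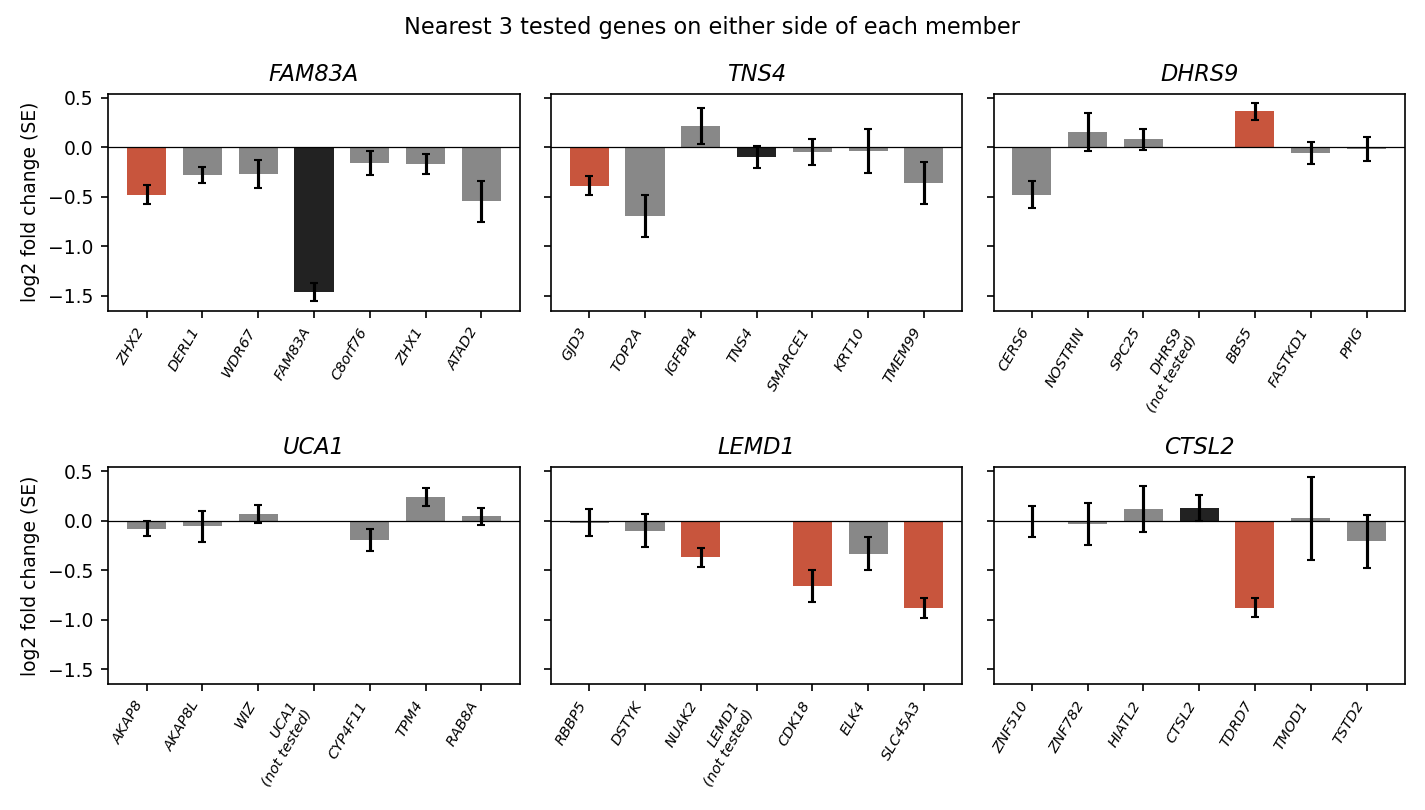
Log2 fold changes on the log2(FPKM + 1) scale with standard errors for the 3 nearest tested genes on either side of each marker. The black bar is the marker where it was tested, red bars passed limma and grey bars did not. FAM83A at -1.46 lies well below its neighbours, which run from -0.54 to -0.16.

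The genes most like each measurable marker were taken by Pearson's r of log2(FPKM + 1) over the 6 libraries, with genes under a mean of 3 FPKM left aside. For FAM83A they were NDRG1, a stress- and differentiation-related gene (r = 0.999), and APCDD1, an inhibitor of WNT signalling (r = 0.999). Such values mostly reflect the gap between the groups, and 82 of 9849 genes reached at least 0.99. NDRG1 fell 2.30-fold, with means of 27.6 ± 0.305 and 12 ± 0.385 FPKM and APCDD1 fell 3.03-fold, with means of 28.7 ± 0.394 and 9.47 ± 0.341 FPKM. TNS4 was followed most closely by FLNA, the actin cross-linker filamin A (r = 0.996), and GTPBP2 (r = 0.99), in both cases with parental library 1 highest. CTSL2 was followed by PRPF38A, a splicing factor gene (r = 0.999), and DNLZ (r = 0.993), both highest in parental library 2. These correlations describe 6 libraries that share 1 processing, and the genes named are the extremes of 9848 or 9849 compared per marker.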

How the data were processed

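Messenger RNA of 3 parental and 3 ARID1A-deficient L3.6pl samples was measured; titles gave groups and replicate numbers. In both groups the file headers number titled replicates 1, 2 and 3 as 1, 0 and 2, and the titles' numbers are used throughout. RNA isolation with TRIzol and a TruSeq version 2 library kit are named per the labels' protocols. The authors deposited FPKM values, 1 table per sample with 23273 rows. Of these, 28 rows with symbols turned into dates were left out. The submitters' processing notes list the aligner TopHat2 (2.1.1), the quantifiers Cuffdiff (2.2.1.5) and Cuffnorm (2.2.1.2) and build GRCh37 (hg19), without the gene annotation or the scaling. FPKM values are relative, so a change of RNA per cell is not visible.

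Limma 3.58.1 (R 4.3.3) was fitted across all genes to log2(FPKM + 1) with a mean-variance trend, robust moderation and group as the only term. A mean of 0.5 FPKM or more was required (12826 of 17832 rows above 0). P-values are two-sided and Benjamini-Hochberg adjusted over all tested genes, with a threshold of 0.05. A fold is the ratio of mean FPKM. Exact permutation tests used SciPy 1.17.1. The fit was run on simulated data with 200 changed genes and independent values. That run does not cover the weight of single libraries seen here, and no result rests on it.

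The markers and gene lists were chosen with earlier results of these data known. Signature lists were written from background knowledge of published subtype signatures. From each list, up to 4 called genes with the smallest adjusted p are named, and genes above 3 FPKM may be given as levels. Also named are ARID1A, the 2 genes most like each marker, genes among the 3 nearest tested on either side, and genes overlapping a marker on the same strand. The 2 most similar genes are not given for markers too low to test. One called basal-like gene is counted but not reported here. Chromosome order was found for 96.7% of tested genes. Alternatives were pseudocount, filter, scaling, moderation, a replicate block and leaving out each library.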

Additional observations from a re-analysis of the deposited data

How the results depend on the processing

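The FAM83A fall kept its direction and its call in all 12 alternatives that could test it, with log2 fold changes of -1.49 to -1.41 in the fits without 1 library and -2.11 with a pseudocount of 0.1. TNS4 and CTSL2 kept their direction and did not pass in any of 13 alternatives each. With a minimum mean of 3 FPKM, FAM83A was not tested, so 0 markers were called. The count of all changed genes was 2043, and 964 to 4079 with 1 library left out: leaving out parental 1, 2 or 3 gave 1576, 4079 or 1019, and leaving out ARID1A-deficient 1, 2 or 3 gave 1275, 1082 or 964. The replicate block gave 4049. The cause was not tested. Deviations of same-numbered libraries correlated at 0.219, 0.217 and -0.0131, and not every library correlated best with its own number, so the numbers were not taken to pair the samples. With the block the FAM83A adjusted p = 1.59e-08 and the log2 fold change stayed -1.46. Counts of called genes in the other basal-like and the classical signature stayed within 1.5 times in total under every alternative. Quantile normalization also ended the calls of DHRS12 (adjusted p = 0.0572) and CD68 (0.0562) and called TNS3 (0.0417) and KRT7 (0.00304). Precision for DHRS9, LEMD1 and UCA1 is limited by values near 0 in libraries of unknown depth.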

Other observations

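Transcription factors tied to the basal-like and classical programs were also read, by their measured members. Of 8 basal-like factors 6 were measurable, with 1 higher, 1 lower and 4 not past the threshold. RUNX3 fell 1.56-fold, with means of 10.9 ± 0.382 and 6.98 ± 0.444 FPKM (limma adjusted p = 0.00532), and HMGA2, a chromatin architectural factor, rose 1.54-fold (limma adjusted p = 0.014), a call lost when parental library 3 or ARID1A-deficient 2 or 3 was left out (adjusted p up to 0.0771). TP63, the squamous master regulator, had parental values of 32.1, 18.7 and 27.2 FPKM and ARID1A-deficient values of 17.8, 14.3 and 14.8 FPKM. The TP63 groups did not overlap, but the test did not pass (limma adjusted p = 0.0625). It passed without parental library 2 (adjusted p = 0.000903). KLF5, a Krüppel-like factor of epithelia, passed there too (adjusted p = 0.0144), which gave 3 lower factors.

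Of 10 classical factors 7 were measurable, with 2 higher, 3 lower and 2 not past the threshold. ELF3, an epithelial ETS factor, fell 5.34-fold, with means of 121.2 ± 7.94 and 22.7 ± 1.72 FPKM, while EHF, another epithelial ETS factor, rose 2.44-fold, with means of 17.0 ± 2.89 and 41.5 ± 4.47 FPKM. FOXA2 rose 2.53-fold and GATA4 fell 1.65-fold. FOXA1 fell 1.58-fold, a call lost when parental library 3 or ARID1A-deficient 2 or 3 was left out (adjusted p up to 0.0814). GATA6, a marker of the classical group, measured 9.48 ± 0.515 and 10.2 ± 1.21 FPKM and overlapped between groups. Of 10 long noncoding RNAs studied in carcinoma, 7 were measurable, and H19 fell 9.06-fold while 6 did not pass; without parental library 2, 1 was higher and 2 were lower. UCA1, at 0.271 FPKM or less, lay below all 7.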
